A study of Mus musculus with 6 samples.

Results

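The serum amyloid A family was followed in the livers of 6 male mice on a high-sucrose diet. The family has 4 members on the array, Saa1, Saa2, Saa3 and Saa4, out of 22911 genes that the array names. The members were chosen as the probes whose RefSeq accession maps to one of these genes, and each gene had 1 probe. The mice were 3 with a liver-specific Elovl6 knockout (LKO) and 3 controls, titled Flox. The diet lasted 14 days in both groups, and food was withdrawn 4 hours before the livers were taken. Elovl6 encodes the elongase that lengthens palmitate to stearate. The promoter that drives the deletion, the strain and the age of the mice are not given in the sources used here. With 1 one-colour array per liver, n = 3 mice per group. The labels give 1 liver per sample and do not say whether mice shared a litter.

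Serum amyloid A proteins are small apolipoproteins that travel on high-density lipoprotein. In the mouse, hepatocytes make SAA1 and SAA2 in large amounts during an acute phase response, when IL-6, IL-1 and TNF reach the liver and act through STAT3, NF-kB and C/EBP factors. Saa3 is also inducible and is made outside the liver too, among others by macrophages and adipocytes. Saa4 encodes the constitutive member, which liver makes without inflammation. Saa1 and Saa2 are near-identical copies, and the RefSeq table lists each symbol among the older names of the other.

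The promoters of the members were set side by side. RefSeq promoter sequence (GRCm38.p6) was matched by symbol for 4 of 4 members, and the 250 bases before each start site were compared. Those of Saa1 and Saa2 were identical at 238 of 251 aligned positions (94.8%). The other 5 pairs lay between 46.8% and 52.4%, and these include alignment gaps. Unrelated promoters were not aligned, so these lower values cannot be read as likeness. The C/EBP motif TTGCNNAA, searched on both strands, had 1 match in each of Saa1, Saa2 and Saa3 and 2 in Saa4. It occurs in 9.57% of 32841 promoter windows of the same length. In Saa1 and Saa2 the looser C/EBP motif TTNNGNAAT (10.2% of windows) overlaps it in the same place. The 30 bases around the match are shown for the inducible members. Saa1 and Saa2 share the site, 175 and 176 bases before the start site. The Saa3 match has other letters and lies at 92 bases. Capitals mark the TTGCNNAA match, which lies on the opposite strand in Saa3. The segments are chr7:46743144-46743173 (minus strand) for Saa1, chr7:46751639-46751668 (plus strand) for Saa2 and chr7:46715757-46715786 (minus strand) for Saa3.
Saa1: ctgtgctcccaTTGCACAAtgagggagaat
Saa2: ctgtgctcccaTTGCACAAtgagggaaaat
Saa3: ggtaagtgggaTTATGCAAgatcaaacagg

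The whole windows of Saa2 and Saa4 set an inducible member beside the constitutive one. Saa2 is at chr7:46751583-46751832 on the plus strand and Saa4 at chr7:46732604-46732853 on the minus strand of GRCm38.p6. Capitals mark every match of the motifs searched. Those of Saa1 and Saa3 overlap the span of longer transcript models, in part for Saa1, and are not shown whole.
Saa2: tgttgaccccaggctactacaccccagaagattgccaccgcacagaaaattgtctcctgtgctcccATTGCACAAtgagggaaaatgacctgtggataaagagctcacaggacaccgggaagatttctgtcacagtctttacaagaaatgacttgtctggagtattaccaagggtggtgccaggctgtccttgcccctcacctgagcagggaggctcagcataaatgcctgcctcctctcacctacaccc
Saa4: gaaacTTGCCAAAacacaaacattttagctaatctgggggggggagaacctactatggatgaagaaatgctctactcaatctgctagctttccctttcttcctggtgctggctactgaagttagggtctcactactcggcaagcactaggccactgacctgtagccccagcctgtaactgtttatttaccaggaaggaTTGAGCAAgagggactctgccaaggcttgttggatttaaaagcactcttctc

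In Saa2 the capitals are 1 place, 176 bases before the start site. In Saa4 they are at 238 and 45 bases. The kappa B motif GGACTTTCC (0.283% of windows) had no match in any member. The looser GGNNNTTCC (15.7%) had 1, in Saa3, on the opposite strand. The STAT motif TTCNNNGAA (7.02%) and TATAAA (12.4%) had none in these 4 windows. A match or its lack describes these letters only.

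Elovl6, the targeted gene, was at -6.92, -6.36 and -6.24 relative to its control mean (log2) in the LKO livers and between -0.37 and 0.64 in the controls. It fell 91.0-fold (log2 change -6.51 ± 0.30, SE, limma adjusted p = 0.00279), in the direction of the labels. The processed signal is the scanner software's background-corrected brightness of a spot. Between 52.1% and 56.6% of spots on an array were well above background, and no spot was saturated. The small number of arrays limits the precision. All 14 tested hepatocyte markers were well above background on all 6 arrays, with log2 changes between -0.16 and 0.22. Per the file headers, 1 slide and 1 scan held all 6 arrays. The first of the 2 position numbers of the array was 1 for all controls and LKO 1, and 2 for LKO 2 and LKO 3. Of 14171 genes tested, 2 passed a limma adjusted p of 0.05 (0.0141%), 1 higher and 1 lower in LKO (0.00706% each), and 0 of 4 Saa genes were among them. Of 27950 probes tested, 6 passed (0.0215%), and 0 of the 4 Saa probes did. At an unadjusted p under 0.05 there were 11.2% of genes.

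Saa1 and Saa2 had much higher signals in every LKO liver than in any control. The Saa1 probe (A_52_P318673) read 10218, 14264 and 29251 processed signal units in the controls. It read 112109, 140077 and 199486 in LKO. Control 3 was the brightest control, and the groups did not overlap. For the Saa2 probe (A_51_P166886) the control signals were 12583, 17279 and 33662. The LKO signals were 155404, 191272 and 270422. The order of the mice was the same as for Saa1 in both groups. The brightest of these spots had a median signal at 31.6% of the saturation value. In whole liver RNA, more cells of a type and more RNA per cell cannot be told apart.

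**Figure D1:**
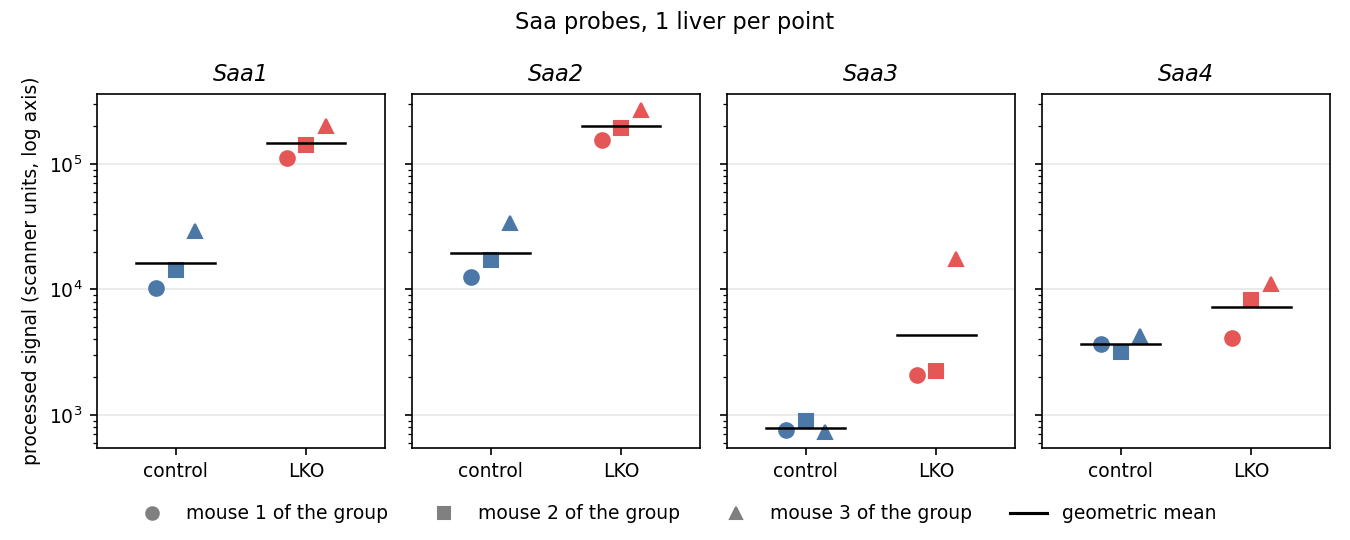
Processed signal in scanner units on a log axis for the probe of each Saa gene, with 1 point per liver, marker shape giving the mouse number within its group and bars the geometric means. For Saa1, Saa2 and Saa3 every LKO point lies above every control point, and for Saa4 the lowest LKO signal (4101) lies below the highest control signal (4273).

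For the comparison, signals were put on the log2 scale and set against the 75th percentile of their array. On that scale Saa2 was 11.1-fold higher in LKO (log2 change 3.48 ± 0.38, SE, n = 3 per group). Its limma adjusted p was 0.100, which missed the threshold. Saa1 was 9.74-fold higher (3.28 ± 0.40, SE), also with an adjusted p of 0.100. An exact two-sided permutation test over the 6 mice gave p = 0.1 for each of the 4 Saa genes, the smallest p that 3 mice against 3 allow. Among 13665 genes well above background on all 6 arrays, Saa2 had the highest log2 change and Saa1 the second highest. The lowest LKO value was 4.91-fold above the highest control value for Saa2 and 4.08-fold for Saa1.

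The call for both genes was not the same under every setting. With normexp on the median spot signals in place of the scanner software's processed signals, the limma adjusted p was 0.0405 for Saa1 and for Saa2, and the log2 changes were 3.29 and 3.51. Over the 17 alternatives the adjusted p went from 0.0274 to 0.637 for Saa1 and from 0.0222 to 0.518 for Saa2. Their log2 changes lay between 2.89 and 3.71 and between 3.10 and 3.88. With the position number as a covariate, a fit that sets only LKO 1 against the controls, they were 2.89 ± 0.57 and 3.10 ± 0.53 (SE).

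The controls were not alike in these transcripts. Saa1 spanned 2.94-fold among the 3 controls and 1.77-fold among the 3 LKO mice, and Saa2 spanned 2.75-fold and 1.74-fold. The control SD was 0.79 (log2) for Saa1 and 0.74 for Saa2, against a median of 0.13 over all genes tested. By control SD they ranked 90 and 108 among the 13665 genes. Control 3 was 1.81-fold above the control mean for Saa1 and 1.74-fold for Saa2. Without control 3 the log2 changes were 3.71 ± 0.28 and 3.88 ± 0.27 (SE).

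Saa3 was 5.93-fold higher in LKO (log2 change 2.57 ± 0.78, SE, limma adjusted p = 0.325), and 1 mouse decided that value. The probe (A_66_P106131) read 757, 889 and 735 processed signal units in the controls. It read 2084, 2252 and 17503 in LKO. The controls were close to each other, as were LKO 1 and LKO 2, and LKO 3 stood far above all of them. Over the control mean, LKO 1 was 2.82-fold, LKO 2 3.14-fold and LKO 3 23.6-fold higher. The groups did not overlap, and the gap between them was 2.47-fold.

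Saa3 spanned 8.38-fold among the LKO mice and 1.22-fold among the controls. Its LKO SD of 1.73 (log2) ranked 7 among the 13665 genes, and its control SD of 0.17 ranked 4845. Without LKO 3 the log2 change fell to 1.57 ± 0.13 (SE, limma adjusted p = 0.0673), and without LKO 1 it was 3.11 ± 0.79 (0.187). Over the 17 alternatives its adjusted p went from 0.0673 to 0.9999. With the position number as a covariate the log2 change was 1.49 ± 0.99 (SE). LKO 3 was the highest mouse for each of the 4 Saa genes and LKO 1 the lowest LKO mouse. For Saa1 and Saa2 their distance was 0.83 and 0.80 on the log2 scale, and for Saa3 it was 3.07.

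Saa4, the constitutive member, was 2.12-fold higher in LKO (log2 change 1.08 ± 0.35, SE, limma adjusted p = 0.348). Its probe (A_52_P404329) read 3656, 3197 and 4273 processed signal units in the controls. It read 4101, 8267 and 11125 in LKO. LKO 1 lay among the controls, while LKO 2 and LKO 3 lay above all of them. Over the control mean the 3 LKO mice were 1.19-fold, 2.48-fold and 3.22-fold higher.

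Whether the groups overlap for Saa4 depended on the scaling. They did not overlap after the 75th percentile (gap 0.03 on the log2 scale), quantile normalization or normexp. They overlapped after median scaling and in the unscaled signals. Saa4 ranked 39 by log2 change and 149 by LKO SD among the 13665 genes. Without LKO 1 the log2 change was 1.498 ± 0.174 (SE, limma adjusted p = 0.0548), and without LKO 3 it was 0.78 ± 0.32 (0.586). Over the 17 alternatives its adjusted p went from 0.0548 to 0.9999. With the position number as a covariate it was 0.25 ± 0.22 (SE). The position numbers and the LKO mice with high Saa4 cannot be told apart here.

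All 4 Saa genes had LKO above control with no overlap on the 75th percentile scale, as did 8.11% of all genes tested (17.3% in either direction, 9.21% with LKO below). All 4 had an unadjusted p under 0.05 with a higher value in LKO, as did 5.56% of all genes, while 5.6% had a lower value at that p. Since the genes were chosen with results known, no weight is put on these counts.

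**Figure D2:**
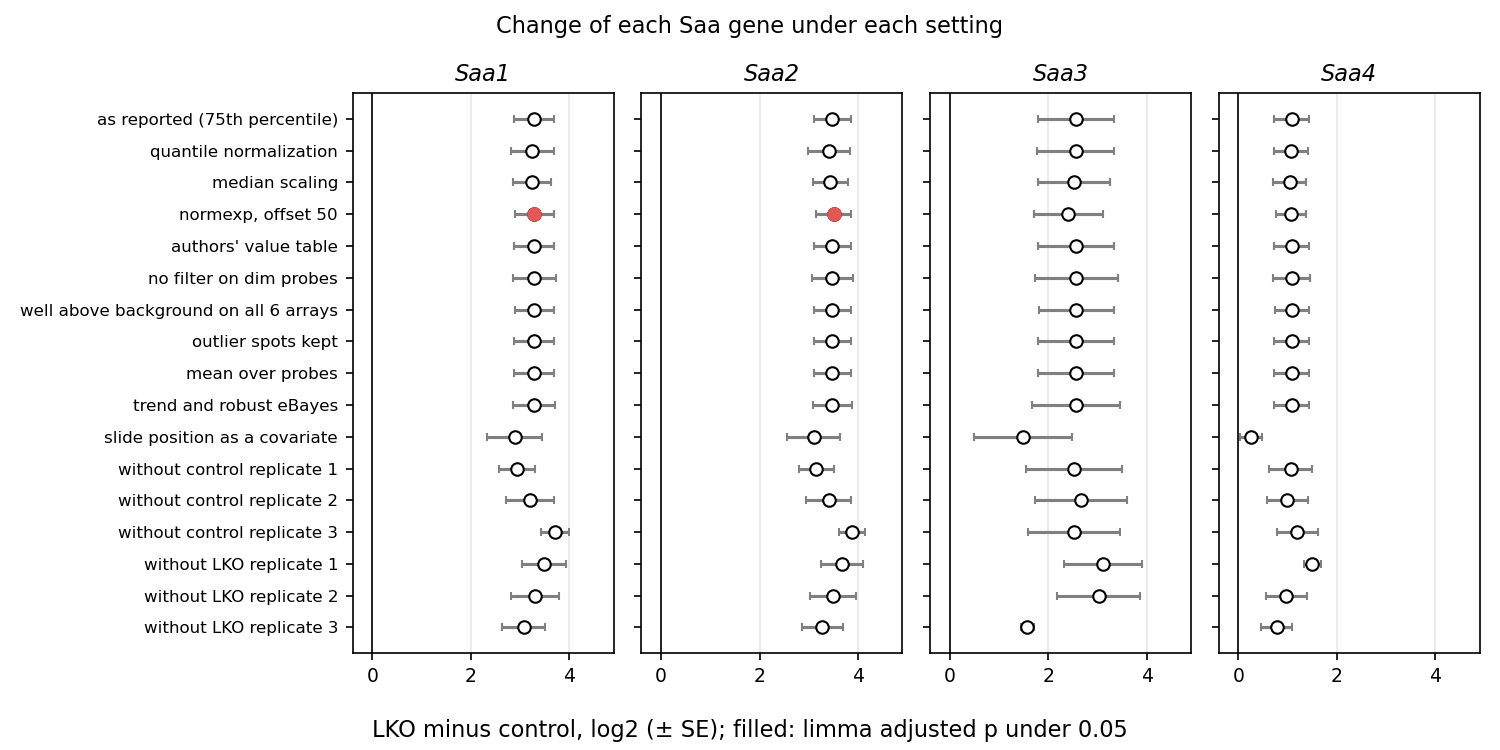
LKO minus control on the log2 scale (x axis, with SE bars) for each Saa gene, filled where the limma adjusted p was under 0.05. Settings of the processing and fits with each mouse left out are drawn. The fit with the replicate number as a block, where Saa1 and Saa2 passed, is not drawn. Saa1 and Saa2 stay between 2.89 and 3.88 throughout, Saa3 drops to 1.57 without LKO 3 and to 1.49 with the position on the slide as a covariate, and Saa4 drops to 0.25 with that covariate.

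The inducible members were then set against Saa4 within each array, so that the scaling of the array cancels. The comparison concerns changes, since levels of different probes are not comparable. The log2 change of Saa1 exceeded that of Saa4 by 2.20 ± 0.43 (SE), or 4.599-fold. Relative to the control mean, Saa1 minus Saa4 stood at -0.66, 0.02 and 0.64 in control mice, compared with 2.63, 1.94 and 2.03 in LKO. Every LKO mouse lay above every control. For Saa2 the excess was 2.40 ± 0.41 (SE), or 5.26-fold, again with every LKO mouse above every control. The exact permutation p was 0.1 for both, and 0.15 after Benjamini-Hochberg adjustment over the 3 pairs with Saa4.

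For Saa3 the excess over Saa4 was 1.49 ± 0.77 (SE), and the groups overlapped. LKO 2, at 0.34, lay below control 2, at 0.37, while LKO 1 was at 1.24 and LKO 3 at 2.87. The exact permutation p was 0.2, unchanged by the adjustment. Without LKO 3 the excess was 0.79 ± 0.49 (SE). A larger change of Saa3 than of Saa4 was therefore not shown. The 3 pairs draw on the same Saa4 values and are not independent.

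**Figure D3:**
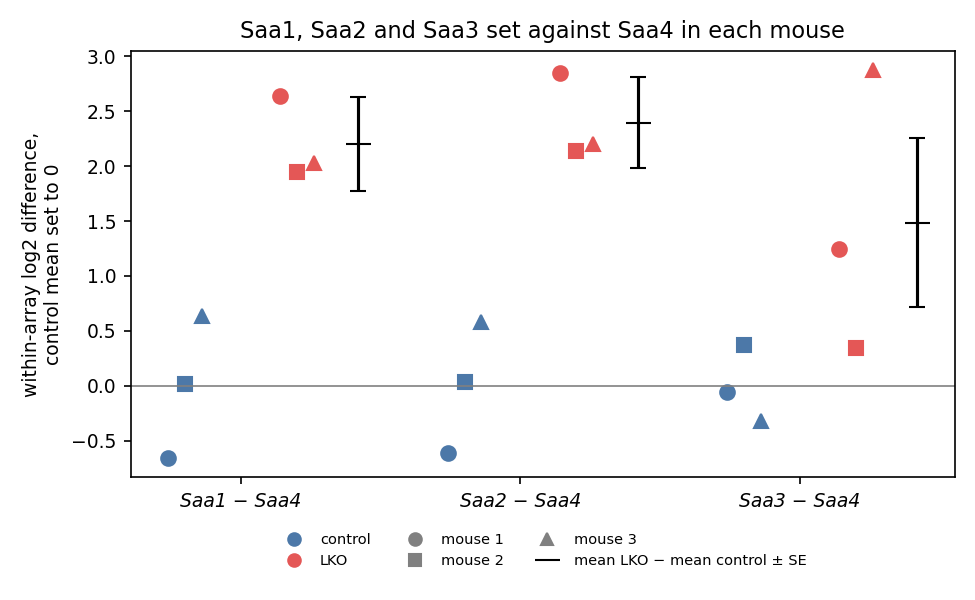
Within-array log2 difference of each inducible Saa gene and Saa4, with the control mean set to 0, for each mouse (colour for group, shape for mouse number) and the LKO minus control mean with its SE in black. LKO mice lie at 1.94 to 2.63 for Saa1 and 2.13 to 2.85 for Saa2, above all controls, and for Saa3 they spread from 0.34 to 2.87.

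Pairs without Saa4 were examined after the values had been seen and are given as a description. Saa1 and Saa2 moved nearly in step across the mice. Relative to the control mean, Saa2 minus Saa1 stood at 0.04, 0.02 and -0.06 in control mice, compared with 0.21, 0.19 and 0.18 in LKO. The log2 change of the Saa2 probe thus exceeded that of the Saa1 probe by 0.19 ± 0.03 (SE), or 1.14-fold. Probe sequences were not used here, and how far either probe reads the transcript of the other copy was not tested. Saa3 minus Saa1 was -1.39 and -1.60 in LKO 1 and LKO 2 but 0.85 in LKO 3.

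Other genes with the most similar pattern were found by the root mean square difference between log2 values over the 6 mice, each gene centred on its control mean. The search covered 13660 genes outside the family. Closest to Saa1 (0.48 log2 units) and to Saa2 (0.54) was Lcn2, which encodes lipocalin 2, an iron-scavenging acute phase protein. Derl3, of the degradation of misfolded proteins, Slc13a5, the citrate transporter, S100a8 and Orm3 followed for both, at 0.83 to 1.02. Closest to Saa3 were S100a8 (0.59), Slc13a5 (0.61) and S100a9 (0.63), then Orm3 (0.72) and Cxcl1 (0.76). S100a8 and S100a9 encode the calprotectin subunits of myeloid cells, and Cxcl1 a neutrophil chemokine.

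These genes also had LKO 3 highest, except Derl3. Cxcl1 was 0.60, 3.19 and 4.55 (log2) above its control mean in LKO 1, 2 and 3. Closest to Saa4 was Lbp, which encodes the lipopolysaccharide-binding protein of the acute phase, at 0.15 log2 units. Lbp was 0.26, 1.52 and 1.40 above its control mean in the 3 LKO mice, against 0.25, 1.31 and 1.69 for Saa4. Cyb561, Adam8, Hdc and Tead1 followed at 0.16 to 0.18. The measure is over 6 mice that fall into 2 groups, so it mostly reads the group difference.

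Among other acute phase proteins, 29 of 30 genes tested, of 34 listed, had a higher value in LKO. No member passed the limma adjusted p of 0.05, while 22 were higher and 1 lower at an unadjusted p under 0.05, against 5.56% and 5.6% of all genes tested. The median log2 change was 0.72, against 0.00 over all genes tested, 50.8% of which were above 0. The list, like those below, was written with earlier results of these data known, so no weight is put on the counts. With the smallest p, Itih3, an inter-alpha-trypsin inhibitor heavy chain, was at 0.90 ± 0.14 (SE), haemopexin (Hpx) at 0.80 ± 0.14 and haptoglobin (Hp) at 0.69 ± 0.12. Vnn1, a pantetheinase that is also a PPAR alpha target, was the member that was lower (-1.38 ± 0.23). The mean of the list over its control mean was 0.34 in LKO 1, 0.93 in LKO 2 and 1.18 in LKO 3, the same order of mice as for all Saa genes. Here and in the lists below, the distance of LKO 2 and LKO 3 from LKO 1 cannot be told apart from their position number. In the controls it was between -0.09 and 0.15, highest in control 3, which also had the highest Saa1, Saa2 and Saa4.

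Proteins that liver makes less of in an acute phase response ran in both directions, from -0.65 to 0.84 on the log2 scale. Of 15 tested, 9 had a higher value, none had an unadjusted p under 0.05 in limma, and the median log2 change was 0.03. The smallest p belonged to Igf1 (0.23 ± 0.10, SE), Apom (0.23 ± 0.10), Fetub (0.22 ± 0.11) and transthyretin, Ttr (-0.16 ± 0.08). Albumin (Alb), added with its value known, had a log2 change of 0.01 ± 0.07.

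**Figure D4:**
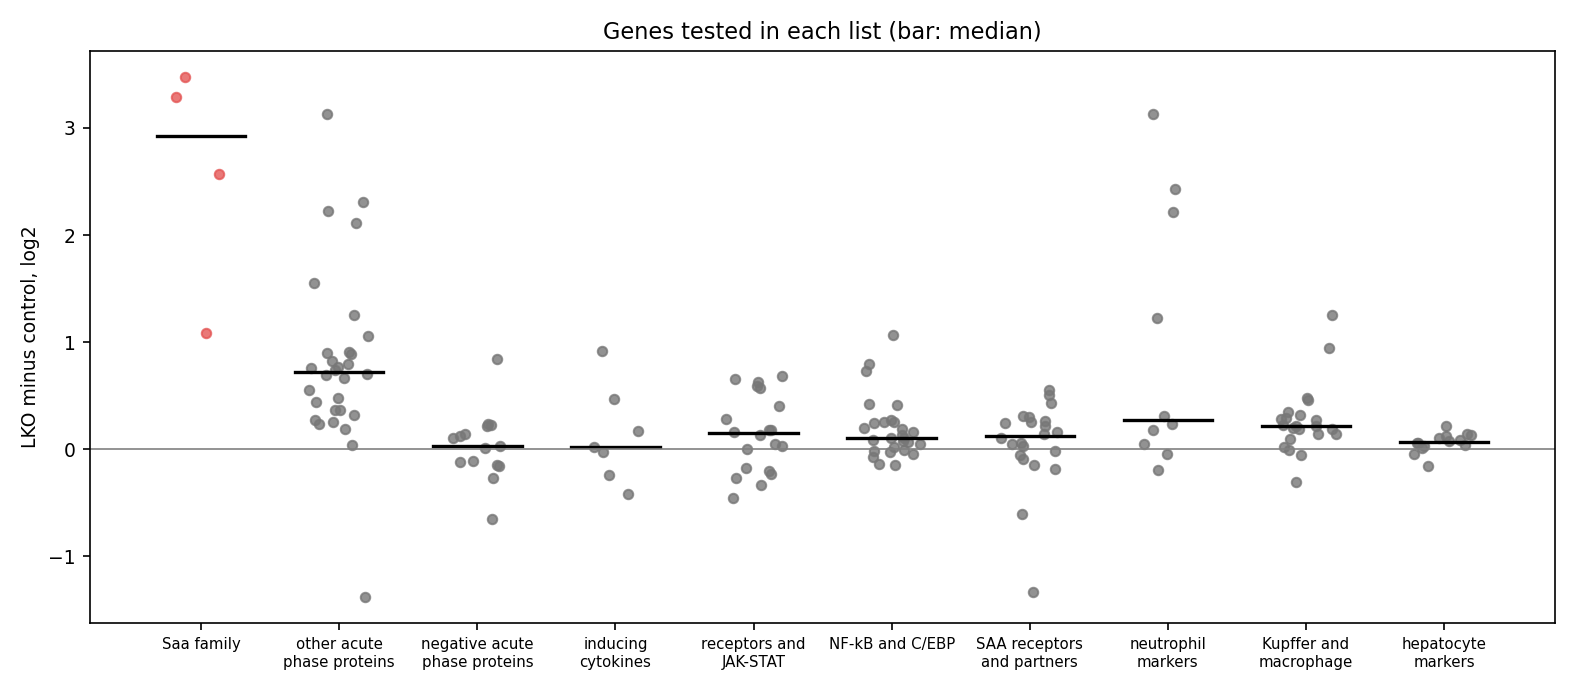
LKO minus control on the log2 scale for each tested gene of 10 lists, with bars at the medians. The Saa genes have a median of 2.93 and the other acute phase proteins of 0.72, while the other lists have medians from 0.03 to 0.27.

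Among the cytokines that induce the family, Tnf was the only one with LKO above control in every mouse. Over all genes tested, 8.11% had LKO above control with no overlap. Of 13 cytokines listed, 7 could be tested, with a median log2 change of 0.03 and no gene past the limma threshold. Tnf was at 0.92 ± 0.20 (SE, adjusted p = 0.223), and its values over the control mean were 1.14, 1.09 and 0.52 in LKO 1, 2 and 3. It was thus lowest in LKO 3, the mouse with the highest Saa genes. Il11 was at 0.47 ± 0.17, and Il1b, which encodes interleukin-1 beta, at -0.42 ± 0.67 with overlapping groups. Il6 was well above background on 1 of the 6 arrays and was not tested. These are levels in liver RNA only, and cytokines reaching the liver in blood were not measured.

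Their receptors and the JAK-STAT genes had 14 of 20 members higher, with a median log2 change of 0.15. Over all genes tested, 50.8% were above 0. No member of the list passed the limma threshold. At an unadjusted p under 0.05, 4 were higher and 1 lower, against 5.56% and 5.6% of all genes tested. The interleukin-1 receptor, Il1r1, was at 0.59 ± 0.14 (SE) and the IL-6 receptor, Il6ra, at 0.65 ± 0.19. Il6ra was 0.30, 0.69 and 0.97 above its control mean in LKO 1, 2 and 3. Its signalling partner Il6st was at 0.16 ± 0.09. Stat3, the transcription factor of this pathway, was at 0.57 ± 0.19, with 0.16, 0.66 and 0.89 in the LKO mice. Socs1, a feedback inhibitor, was at -0.46 ± 0.17. Socs3, the feedback inhibitor that STAT3 induces, was at 0.69 ± 0.76, and its controls alone ran from -1.18 to 1.25.

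Of the NF-kB and C/EBP factors and their feedback genes, 20 of 27 tested had higher values in LKO, with a median log2 change of 0.11. Over all genes tested, 50.8% were above 0. No member of the list passed the limma threshold. At an unadjusted p under 0.05, 3 were higher, against 5.56% of all genes tested. These 3 were Cebpe (0.80 ± 0.21, SE), the NF-kB inhibitor Nfkbia (0.41 ± 0.13), which NF-kB itself induces, and its relative Nfkbiz (1.06 ± 0.35). The groups overlapped for Nfkbiz. Nfkbia was 0.14 above its control mean in LKO 1 and 0.55 and 0.56 in LKO 2 and LKO 3. Cebpb and Cebpd, the C/EBP factors of the acute phase, were at 0.25 ± 0.17 and 0.17 ± 0.29. The NF-kB subunits Nfkb1 and Rela were at 0.08 ± 0.20 and 0.11 ± 0.08, and Myd88, their adaptor below the Toll-like receptors, at 0.20 ± 0.10.

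Of the receptors and lipoprotein partners of SAA, 22 genes were tested and 15 had a higher value, with a median log2 change of 0.12. None passed the limma threshold, and 3 were higher and 2 lower at an unadjusted p under 0.05, against 5.56% and 5.6% of all genes. The scavenger receptor Cd36 was at -0.61 ± 0.13 (SE), and Pltp, the phospholipid transfer protein of plasma lipoproteins, at -1.33 ± 0.31. Both had all LKO mice below all controls, as did 9.21% of all genes tested. Sdc1, a heparan sulphate proteoglycan, was at 0.43 ± 0.13 and Lcat, which esterifies cholesterol on high-density lipoprotein, at 0.30 ± 0.11. Chosen after their values were seen, Apoa1, the main apolipoprotein that SAA displaces, was at 0.14 ± 0.12 and Fpr2, a formyl peptide receptor of SAA, at 0.06 ± 0.14.

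Markers of myeloid cells were measured beside Saa3, which such cells also make. Of 18 neutrophil markers listed, 10 were tested, and 5 of them were higher at an unadjusted p under 0.05, with 0 past the limma threshold. Over all genes tested, 5.56% were higher at that p. Lcn2, which hepatocytes make too, was at 3.13 ± 0.65 (SE), S100a8 at 2.43 ± 0.61, S100a9 at 2.21 ± 0.59 and Retnlg at 1.23 ± 0.33. The defining neutrophil markers Mpo, Ltf, Ngp and Ly6g did not pass the filter on dim probes. Camp and Elane, granule genes chosen after their values were seen, were at 0.18 ± 0.17 and -0.19 ± 0.12. The median log2 change of the 10 was 0.27, and Csf3r, Stfa2 and Mmp8 lay between -0.04 and 0.24. The mean of the list, which Lcn2, S100a8, S100a9 and Retnlg raise, was 0.48, 1.02 and 1.37 over its control mean in LKO 1, 2 and 3, and between -0.21 and 0.11 in the controls.

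Of 23 Kupffer cell and macrophage markers, 22 were tested and 19 had higher values in LKO, with a median log2 change of 0.22. None passed the limma threshold, and Lyz2 (0.46 ± 0.12, SE) and Marco (1.25 ± 0.41) were higher at an unadjusted p under 0.05. Over all genes tested, 5.56% were higher at that p and 50.8% were above 0. The resident-cell markers Clec4f and Vsig4, also chosen after their values were seen, were at 0.19 ± 0.13 and 0.14 ± 0.15. The mean of the list was 0.04, 0.28 and 0.50 in LKO 1, 2 and 3, and between -0.15 and 0.25 in the controls. The part of either cell type in the Saa3 values was not tested.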

How the data were processed

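Liver RNA of 3 control and 3 LKO mice was read from one-colour Agilent arrays. The scanner software was Agilent Feature Extraction 11.5.1.1, per the file headers. Its processed signals are deposited as intensity values, already background-corrected per the file headers, beside quality flags for each spot. The authors' value table holds intensity values that are the processed signal multiplied by a factor of 2.08 to 2.48, fixed within an array (relative deviation up to 4.99e-10). The medians of its columns for control mice were 55.3, 62.9 and 61.5, and for LKO mice 63.7, 59.1 and 62.2. The scale is thus linear, uncentred and of the same direction, and the choice of the factors is not stated in the labels or headers.

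Accessions without versions were matched to a RefSeq table of GRCm38.p6. Of 56605 probes, 32994 had 1 gene symbol, 0 several and 23611 none. The array headers name an earlier build, so coordinates are printed only with RefSeq sequences. Each signal was divided by the 75th percentile of its array (265 to 298 units) and taken to log2. Outlier spots were left out, and of several probes the one with the highest mean stood for the gene. Testing required 3 arrays well above background in 1 group or both. limma 3.58.1 (R 4.3.3) compared the groups without a block, with Benjamini-Hochberg adjustment over all genes, and a second fit used all 27950 probes that passed. The fit was tested on simulated data. Normexp (offset 50) used the median spot and background signals, in place of the planned mean spot signal. Other alternatives were the scaling, the filter on dim probes, outlier spots, the mean over probes, the variance model, the position on the slide, the replicate number and each mouse left out.

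The members and lists were chosen with earlier results of these data known. Genes were named by a rule: every Saa gene, Elovl6, 12 inducers and regulators, the 4 members of each list with the smallest p, and the 5 genes most like each Saa gene. No protein sequences were used here.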

Additional observations from a re-analysis of the deposited data

How the results depend on the processing

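Under all 17 alternatives each Saa gene kept a higher value in LKO and each excess over Saa4 stayed above 0. For Saa3 and Saa4 no alternative changed the side of the limma threshold. The exact test of the differences from Saa4 cannot pass 0.05 with 3 mice against 3, so its p says nothing about their stability. Saa1 passed with normexp (log2 change 3.29, limma adjusted p = 0.0405) and with the replicate number as a block (3.28, adjusted p = 0.0274), and Saa2 passed with normexp (3.51, 0.0405) and with the block (3.48, 0.0222). Over all alternatives the adjusted p of Saa1 went up to 0.637 and that of Saa2 to 0.518. Deviations from the group means of same-numbered mice correlated at 0.04, -0.05 and -0.07 over 14170 genes. Those of mice with different numbers correlated at -0.113 to 0.163. The labels do not say whether a shared number means more than an order, and these few values cannot decide it. With the block, 3 genes passed.

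The count of genes past the threshold, 2, was 16 with normexp, 13 with trend and robust eBayes, and 1 with no filter on dim probes, with only probes above background on all 6 arrays and with the position on the slide as a covariate. With 1 mouse left out it went from 1 to 15. Of probes, 6 passed, against 13 with median scaling, 24 with normexp, 25 with trend and robust eBayes, 3 with the position, 2 without the filter and 1 with all 6 arrays required. With 1 mouse left out that count went from 2 to 33. Among the fits with 1 mouse left out, the most genes and probes passed without LKO replicate 1. The cause of these moves was not tested. The value table of the authors gave the same values as the processed signal. Each Saa signal was well above background on all 6 arrays.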

Other observations

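The genes next to the cluster did not share its size of change. The Saa genes lie together on mouse chromosome 7, and the 5 protein-coding genes on each side were examined after the Saa values had been seen. Of these 10 genes, 6 passed the filter on dim probes, and none had an unadjusted p under 0.05 in limma. Saal1, which lies beside Saa3 and is named for its likeness, was at 0.19 ± 0.09 (log2 change, SE), and Sergef at 0.14 ± 0.08. Both had LKO above control with no overlap, as did 8.11% of all genes tested. On the side of Saa2, Hps5 was at -0.09 ± 0.09, Gtf2h1 at 0.03 ± 0.10, Ldha, a lactate dehydrogenase subunit, at 0.18 ± 0.13 and Tsg101 at -0.13 ± 0.10.

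Markers of other cell types were measured too, and none passed the limma threshold. Adipocytes make Saa3, and 6 of 8 adipocyte markers tested had a lower value in LKO, with a median log2 change of -0.42. Over all genes tested, 50.8% were above 0. Car3 was at -0.62 ± 0.22 (SE), Lep at 0.09 ± 0.10 and Lipe at 0.06 ± 0.17. Adipoq and Plin1 did not pass the filter on dim probes. Whether the tested markers read adipocytes or other cells in the liver was not tested. Nor was the part of adipocytes in the Saa3 values. The median was -0.02 for 12 endothelial markers, 0.07 for 13 stellate cell and fibroblast markers and -0.08 for 6 bile duct markers. It was 0.04 for 10 lymphocyte and plasma cell markers and 0.28 for 5 erythroid markers. At an unadjusted p under 0.05, Hgf (0.52 ± 0.14) and Slc4a1 (0.74 ± 0.29) were higher. Car3, Des (-0.76 ± 0.24), Krt19 (-0.69 ± 0.20) and Jchain (-0.90 ± 0.26) were lower at that p. Over all genes tested, 5.56% were higher and 5.6% lower at that p.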
